A study of Rattus norvegicus with 24 samples.

Results

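Whole brains of rats exposed repeatedly to halothane were compared with whole brains of rats exposed repeatedly to isoflurane. The comparison used 12 of the 24 arrays of the series, namely all 6 halothane arrays against all 6 isoflurane arrays, chosen by their labels, with the number of exposures (5 or 10) as a block. Each exposure lasted 90 min, and 2 were given per day with 3 h of recovery between them, over 2.5 days for 5 exposures or 5 days for 10 exposures. Halothane was given at 0.8% (3 arrays after 5 exposures and 3 after 10) and isoflurane at 1.0% (3 arrays after 5 exposures and 3 after 10), so agent and concentration cannot be told apart. The other 12 arrays were controls, which had also breathed halothane, for 3 min just before they were perfused with cold saline; they entered no contrast and their values are given only beside those of the agents. Strain, sex, age and the time between the last exposure and collection are not given in the sources used here.

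Halothane and isoflurane are halogenated inhaled anaesthetics. Both enhance inhibitory currents through GABA-A and glycine receptors, dampen excitatory transmission and open 2-pore-domain potassium channels. They differ in their fate in the body. Halothane is oxidised to a large extent by cytochrome P450 enzymes, mainly CYP2E1 in the liver, to reactive products that bind proteins, whereas isoflurane is mostly exhaled unchanged.

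Total RNA was read on single-colour oligonucleotide arrays, and the deposited value is 1 linear signal per probe set and array. The 2% trimmed means spanned only 150.1 to 150.2, and the medians of the exposed arrays ranged from 55.4 to 63.5. Correlations between exposed arrays ranged from 0.934 to 0.975. Signals under 16.5, the 25th percentile of the table, were set to that floor before log2 was taken. The floor can understate or enlarge differences of dim genes, and it narrows their spread where values are tied at it. A probe set was tested if at least 3 of the 12 exposed arrays exceeded the floor, which left 7089 of 8799. Bacterial spike-in signals were high on replicate 3 of each exposed group (2 halothane and 2 isoflurane arrays) and low on the others (4 and 4), so that this technical level was balanced over the agents. The labels do not say that replicates were separate animals, so p-values measure only sample-to-sample spread, and part of it may be technical. In whole-brain RNA, fewer cells of a type and less RNA per cell cannot be told apart.

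With limma and Benjamini-Hochberg adjustment, 0 of 7089 probe sets (0%) differed between the agents at an adjusted p under 0.05, and the lowest adjusted p was 0.348. At an unadjusted p under 0.05, 118 probe sets (1.66%) had a higher mean under halothane and 166 (2.34%) a lower one. Uniformly distributed p-values would give 354.45 on average; the 284 found lie under that number, but 503 were found with the replicate number as a block and 482 when blocked on spike-in level, so the comparison turns with the block. The median difference over all tested probe sets was -0.020 on the log2 scale, and 45.2% had a higher mean under halothane. The median 95% interval, not adjusted for the number of tests, reached 0.36 to either side. A typical gene could thus differ by less than that without being resolved by 6 against 6 arrays. Larger differences also failed after adjustment, such as 0.61 for Sult1a1 L19998_at and 0.93 for rc_AI176456_at. On 10 probe sets (0.141%) all halothane arrays lay above all isoflurane arrays, and on 7 (0.0987%) all lay below. With each array centred on its median these counts were 5 and 6. How many probe sets would separate in this way without any agent difference was not counted, so lack of overlap is only a description of the arrays. No gene below is therefore reported as changed; the genes are described by their signals, differences and unadjusted p-values.

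**Figure D1:**
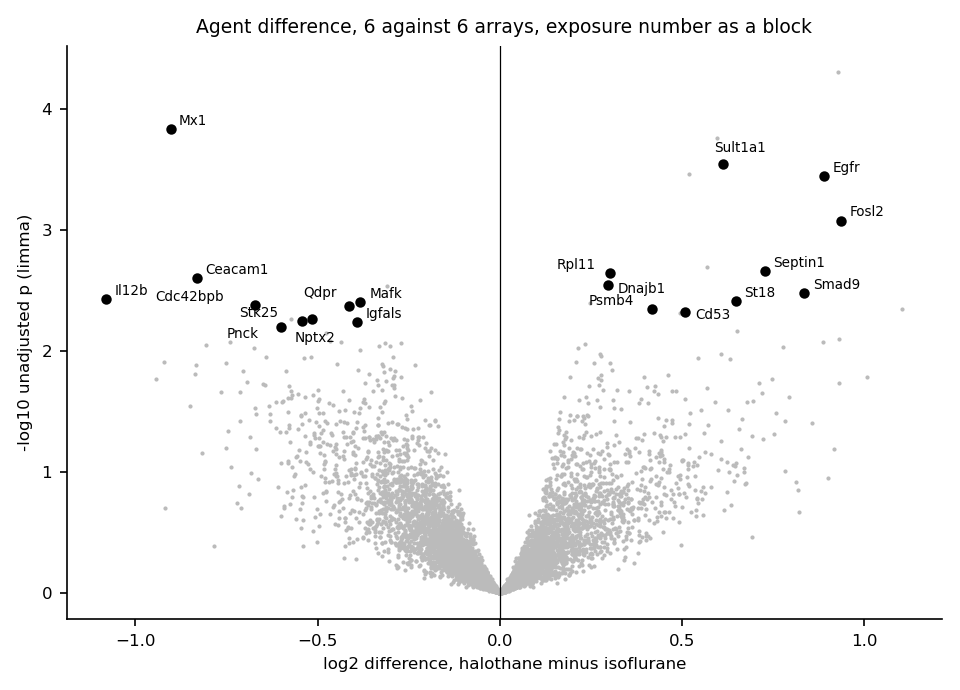
Each point is 1 of the 7089 tested probe sets. The horizontal axis is the log2 difference, halothane minus isoflurane, over 6 against 6 arrays with the exposure number as a block, and the vertical axis is minus log10 of the unadjusted limma p. Black points are the 10 named genes with the lowest p in each direction, among which Mx1 (-0.90) and Sult1a1 (0.61) stand highest on the 2 sides; none passed after adjustment over all probe sets.

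Sult1a1, a phenol sulfotransferase that conjugates phenolic drugs, hormones and catecholamines and is known in rat liver as a glucocorticoid-inducible gene, had the lowest p among the named genes with a higher mean under halothane. On probe set L19998_at its signals were 88.1, 96.1 and 97.4 after 5 halothane exposures and 98.2, 106.9 and 95.6 after 10, against 68.6, 56.8 and 70.8 after 5 isoflurane exposures and 54.0, 66.4 and 65.4 after 10. All 6 halothane arrays lay above all 6 isoflurane arrays. The means were 97.0 ± 6.03 under halothane and 63.7 ± 6.73 under isoflurane (SD, n = 6 each), and the 12 controls ranged from 33.9 to 77.6 with a median of 52.05. The log2 difference was 0.61 ± 0.13 (SE, 95% interval 0.34 to 0.88, adjusted p = 0.424 by limma with Benjamini-Hochberg adjustment, not passed). It was 0.53 at 5 exposures and 0.70 at 10, and 0.67 on the low and 0.50 on the high spike-in arrays. The second Sult1a1 probe set, L19998_g_at, did not overlap between the agents either, with 209.2 to 276.2 (median 226.2) under halothane and 133.5 to 197.1 (median 166.1) under isoflurane, against 87.9 to 184.9 in control. Its log2 difference was 0.52 ± 0.11 (SE, adjusted p = 0.424 by limma with Benjamini-Hochberg adjustment), with 0.55 on the low and 0.47 on the high spike-in arrays. The 2 probe sets read the same transcript and are not independent.

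The sequence before the Sult1a1 start is shown because this gene is the one with both probe sets separated and belongs to the list of glucocorticoid-responsive genes described further on. RefSeq (GRCr8) places it at chr1:190706063-190706362 on the minus strand, from 250 bases before the start to 50 after it, printed 5′ to 3′ along the gene.
Sult1a1 promoter: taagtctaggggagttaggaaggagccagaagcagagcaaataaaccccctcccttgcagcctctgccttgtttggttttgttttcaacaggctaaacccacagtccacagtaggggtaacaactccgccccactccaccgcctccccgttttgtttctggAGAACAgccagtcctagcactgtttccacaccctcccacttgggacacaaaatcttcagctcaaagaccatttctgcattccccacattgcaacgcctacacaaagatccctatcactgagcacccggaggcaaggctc
The capitals mark AGAACA, the reverse complement of TGTTCT, the hexamer of a glucocorticoid receptor half-site, at position 162 of the 300 bases. It was the only match on both strands, and 6923 of 33469 promoters of that length (20.7%) hold at least 1, so the match describes the letters of this window and is not shown to be a site.

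**Figure D2:**
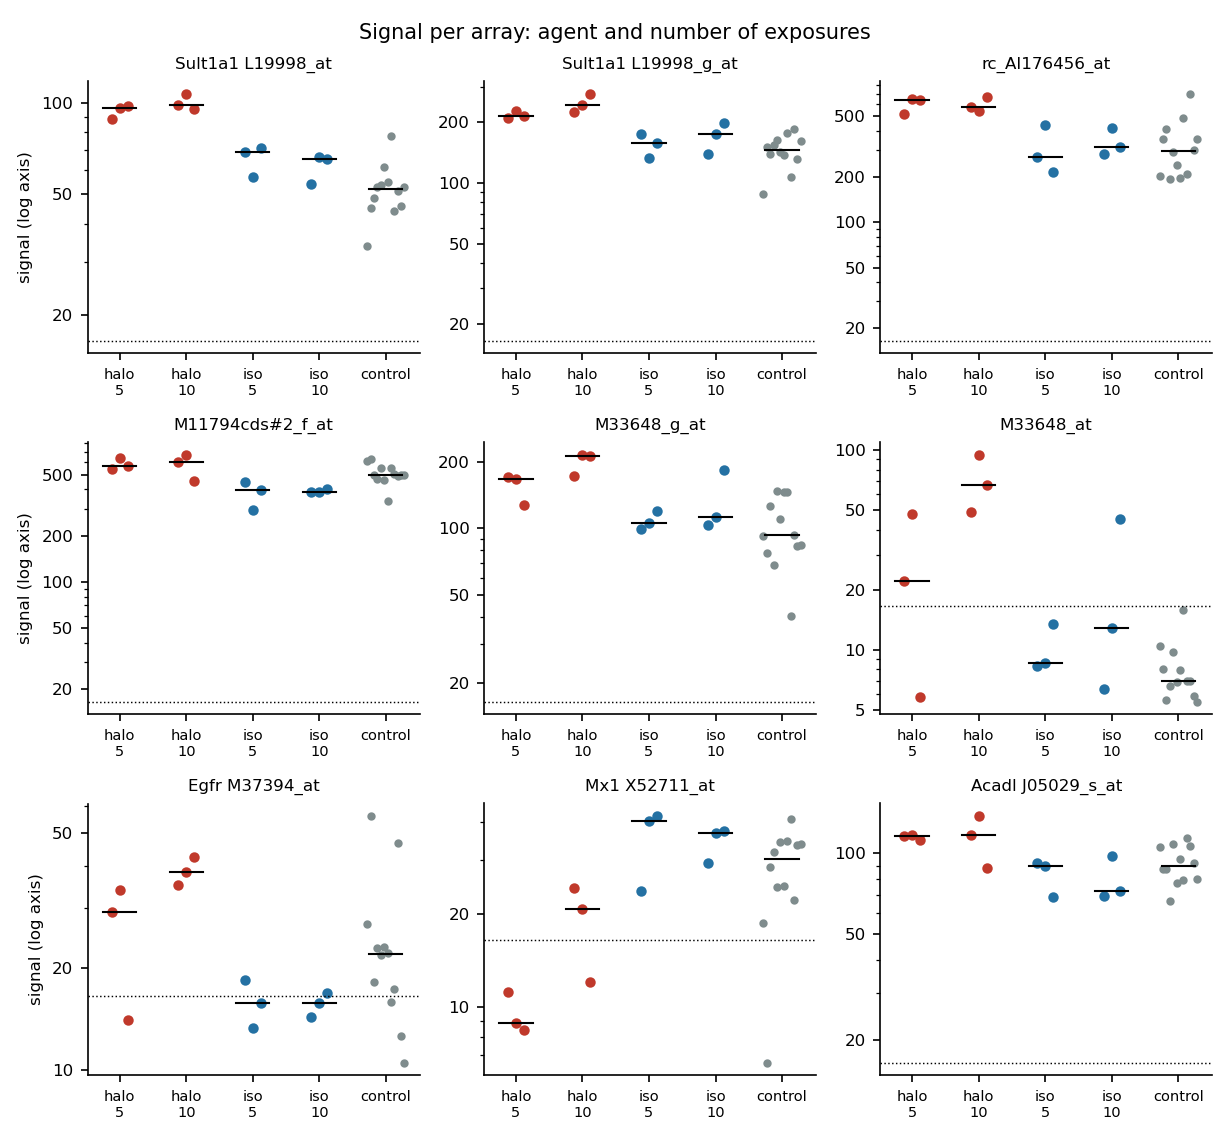
Signals of 9 probe sets on each array (logarithmic axes), with red for halothane, blue for isoflurane and grey for control, 5 and 10 exposures apart; bars are group medians and the dotted line is the floor of 16.5. Both Sult1a1 probe sets, rc_AI176456_at and M11794cds#2_f_at show all 6 halothane points above all 6 isoflurane points, while M33648_at, Egfr and Mx1 lie close to the floor.

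The lowest p of all belonged to rc_AI176456_at, which the platform annotation gives to more than 1 gene and which is therefore not named. Its signals were 520.7, 647.1 and 635.8 after 5 halothane exposures and 571.9, 541.6 and 668.1 after 10, against 268.9, 438.1 and 215.0 after 5 isoflurane exposures and 280.9, 417.5 and 313.2 after 10. The agents did not overlap, but the controls spanned both of them, from 193.1 to 703. The log2 difference was 0.93 ± 0.16 (SE, adjusted p = 0.348 by limma with Benjamini-Hochberg adjustment), 1.03 at 5 exposures and 0.83 at 10. It was 0.73 on the low and 1.33 on the high spike-in arrays, and without isoflurane 5 replicate 2 it was 1.05 and passed (adjusted p = 0.0409). The unnamed M11794cds#2_f_at had 454.3 to 673.0 (median 590.4) under halothane and 296.0 to 445.0 (median 390.6) under isoflurane, a log2 difference of 0.60 ± 0.12 (SE), with 0.72 on the low and 0.35 on the high spike-in arrays. Its controls, 335 to 631.7, overlapped both agents.

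The unnamed pair M33648_g_at and M33648_at had higher means under halothane too. M33648_g_at had 127.3 to 215.0 under halothane and 99.6 to 182.7 under isoflurane, where a single array, isoflurane 10 replicate 3, lay above 120.2. Its log2 difference was 0.57 ± 0.15 (SE), with 0.78 on the low and 0.15 on the high spike-in arrays. M33648_at lay above the floor on 5 of 6 halothane arrays (22.2 to 94.8, the other at 5.8), on 1 of 6 isoflurane arrays (45.1, the others 6.4 to 13.4) and on 0 of 12 control arrays. Its log2 difference of 1.11 ± 0.32 (SE) is measured against the floor and was 0.44 with the floor at the 40th percentile.

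Among named genes with a higher mean under halothane, the lowest p-values came next from dim genes. Egfr, the epidermal growth factor receptor, had 29.3, 33.9 and 14.0 after 5 halothane exposures and 35.0, 38.3 and 42.5 after 10, against 13.3 to 18.4 over the 6 isoflurane arrays, of which 2 were above the floor. All halothane arrays except 5 exposures replicate 3 lay above all isoflurane arrays, and controls ran from 10.5 to 56.1. The log2 difference was 0.89 ± 0.19 (SE, adjusted p = 0.424 by limma with Benjamini-Hochberg adjustment), and 1.06 without that replicate, when it passed (adjusted p = 0.0245). Fosl2, a Fos-family subunit of the transcription factor AP-1, had a log2 difference of 0.94 ± 0.22 (SE) on U18982_s_at, but its other probe set, rc_AI230842_at, lay at -0.67 ± 0.28 (SE), so the 2 probe sets of Fosl2 disagree in direction. Septin1, a cytoskeletal GTPase, had a log2 difference of 0.73, Smad9, a transducer of bone morphogenetic protein signals, one of 0.84, and St18, a zinc finger transcription factor, one of 0.65. With the floor at the 40th percentile these differences were 0.18 for Fosl2 U18982_s_at, 0.085 for Septin1 and 0.46 for Smad9, and with it Egfr and St18 were not tested. On the high spike-in arrays Septin1 lay at 1.13, Smad9 at 0.47 and St18 at 0.41. Smad9 averaged 56.2 ± 9.13 under halothane and 32.7 ± 14.0 under isoflurane (SD, n = 6 each), and its isoflurane values of 13.0 to 53.9 crossed the halothane range of 42.3 to 67.9.

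The other genes named here with higher halothane signals include genes of protein synthesis, folding and turnover. Rpl13a was chosen after its values were seen, and the grouping by function was not tested. Rpl11, a protein of the large ribosomal subunit, had 1092.0 to 1403.2 (median 1209.8) under halothane and 906.7 to 1075.3 (median 996.9) under isoflurane on X62146cds_g_at, which did not overlap and gave a log2 difference of 0.30 ± 0.08 (SE). Its other probe set overlapped, at 0.08 ± 0.06. Rpl13a, another large-subunit protein, had 471.8 to 611.3 under halothane and 231.1 to 459.0 under isoflurane, also without overlap, with a log2 difference of 0.40, or 0.24 without isoflurane 10 replicate 1. Dnajb1, the Hsp40 co-chaperone of Hsp70, had 289.6 to 340.2 (median 325.5) under halothane and 231.8 to 284.9 (median 262.5) under isoflurane on rc_AA945704_at, a log2 difference of 0.30 ± 0.08 (SE), while its second probe set lay at 0.09 ± 0.10 and overlapped. Psmb4, a beta subunit of the 20S proteasome, was at 0.42 ± 0.12 (SE) on L17127_g_at, at 0.26 on L17127_at and at 0.05 on rc_AI172162_at. Cd53, a tetraspanin of leukocytes and microglia, averaged 33.8 ± 5.01 under halothane and 23.8 ± 4.15 under isoflurane (SD, n = 6 each), a log2 difference of 0.51. The 3 remaining probe sets without overlap, with higher halothane signals and no single gene name (X14210cds_at, X53378cds_s_at and X62145cds_at), had log2 differences of 0.25, 0.22 and 0.17, the last 2 at 0.13 and 0.09 on the high spike-in arrays.

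Among genes with a lower mean under halothane, Mx1, an interferon-induced GTPase with antiviral activity, had the lowest p. Its signals were 11.2, 8.9 and 8.4 after 5 halothane exposures and 24.4, 20.9 and 12.1 after 10, against 23.8, 40.2 and 41.8 after 5 isoflurane exposures and 29.4, 36.9 and 37.3 after 10. It was above the floor on 2 of 6 halothane arrays, 6 of 6 isoflurane arrays and 11 of 12 control arrays (median 30.2). Only the highest halothane array crossed the lowest isoflurane array. The log2 difference was -0.90 ± 0.17 (SE, adjusted p = 0.41 by limma with Benjamini-Hochberg adjustment). It depends on the floor, being -1.38 with the floor at the 10th percentile. With the floor at the 40th percentile Mx1 was not tested. The difference was -0.73 on the low and -1.26 on the high spike-in arrays.

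The other genes of that group were Ceacam1, a cell adhesion molecule (-0.83 ± 0.22, SE), Il12b, a subunit of interleukins 12 and 23 (-1.08 ± 0.31), and the kinase genes Cdc42bpb (-0.67), Stk25 (-0.54) and Pnck (-0.60). Ceacam1 had 11.7 to 29.2 under halothane, above the floor on 3 of 6 arrays, and 20.6 to 49.6 under isoflurane. With the floor at the 40th percentile the difference was -0.11 for Ceacam1 and -0.41 for Il12b. Pnck, a calmodulin-dependent kinase, lay at 0.29 and 0.10 on its other probe sets. Nptx2, a secreted pentraxin induced by neuronal activity, had 55.0 to 88.4 (median 69.1) under halothane and 84.5 to 120.0 (median 98.4) under isoflurane on S82649_r_at, a log2 difference of -0.52 ± 0.16 (SE), but its brighter probe set lay at 0.13 ± 0.19. S82649_r_at was at -0.70 on the low and -0.14 on the high spike-in arrays. Qdpr, which regenerates the tetrahydrobiopterin cofactor of monoamine and nitric oxide synthesis, lay at -0.41 ± 0.12 (SE) on one probe set and at -0.21 on the other. Igfals, the acid-labile subunit of the circulating insulin-like growth factor complex, lay at -0.39, -0.16 and -0.10 on its 3 probe sets.

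Of the 7 probe sets with all halothane arrays below all isoflurane arrays, Mafk, a small Maf protein that pairs with Nrf2 and related factors, had a median of 135.7 (lowest 114.4) under halothane and of 178.8 (150.4 to 189.0) under isoflurane, its highest halothane array lying just under its lowest isoflurane array. Its log2 difference was -0.38 ± 0.11 (SE), and -0.36 and -0.40 at 5 and 10 exposures. Ywhah, the eta isoform of the 14-3-3 adaptor proteins, had 1410.3 to 1765.5 under halothane and 1767.9 to 2018.3 under isoflurane, a log2 difference of -0.18. Smg6, an endonuclease of nonsense-mediated mRNA decay, lay at -0.35, Ccdc88c, which binds Dishevelled in Wnt signalling, at -0.29, the unnamed rc_AA799591_at at -0.31, and LOC102547720 and LOC102547047 at -0.67 and -0.37. On the high spike-in arrays Ywhah lay at -0.11, Smg6 at -0.14 and LOC102547047 at -0.22. The named genes of this set and of the one with halothane above isoflurane were chosen after their values were seen, apart from those that also had the lowest p-values.

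The differences at 5 and at 10 exposures share no array, so the sign and size of each can be read against the other. Their p-values are not independent, because both use a spread estimated over all exposed groups together. At 5 exposures limma with Benjamini-Hochberg adjustment gave 0 calls (0%), while 226 probe sets (3.19%) were under 0.05 before adjustment. At 10 exposures 0 were called (0%), with 210 (2.96%) at an unadjusted p under 0.05, and the lowest adjusted p was 0.868. The test of agent by exposure number called 0 (0%), with 164 (2.31%) at an unadjusted p under 0.05. Across the 7089 probe sets the differences at 5 and 10 exposures correlated with a Pearson r of 0.10 and a Spearman rho of 0.12, and with an r of 0.10 on the low spike-in arrays, across probe sets that share the arrays and are not independent. Of 7064 probe sets with a nonzero difference in both, 54.7% had the same sign. Of the 224 with an unadjusted p under 0.05 at 5 exposures, 136 (60.7%) had the same sign at 10, and of the 209 so chosen at 10 exposures, 124 (59.3%) had the same sign at 5.

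**Figure D3:**
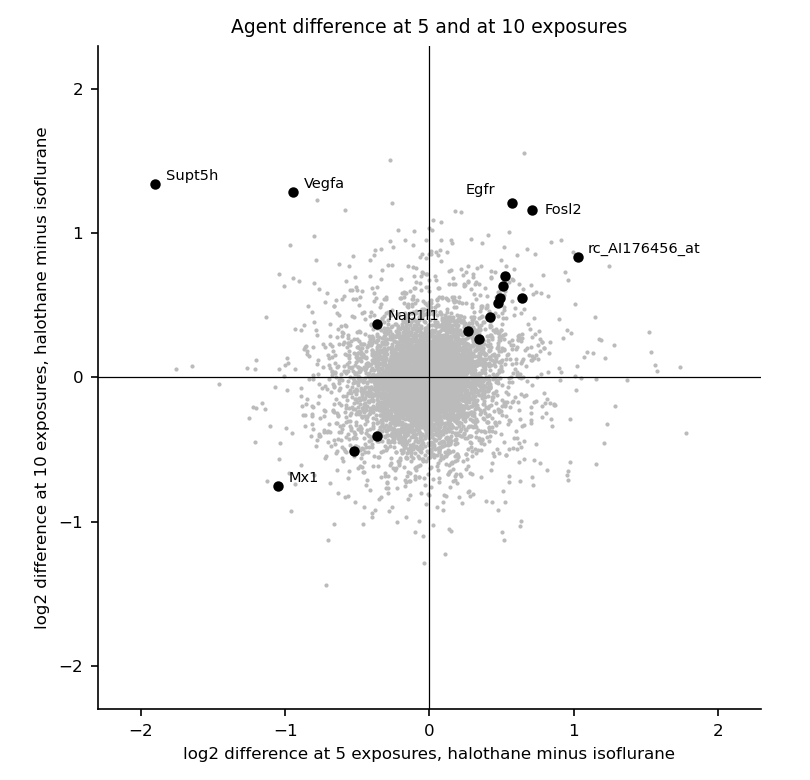
The log2 difference, halothane minus isoflurane, after 5 exposures (horizontal axis) and after 10 exposures (vertical axis) for the 7089 tested probe sets. Black points are the 17 probe sets with an unadjusted p under 0.05 in both, of which 11 lie in the upper right, 3 in the lower left and 3 (Supt5h, Vegfa and Nap1l1) in the upper left; the rest form a round cloud, as the r of 0.10 gives.

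Of the 7089 tested probe sets, 17 had an unadjusted limma p under 0.05 at both exposure numbers. How many would do so without any agent difference was not worked out, and both p-values of a probe set use the same spread. Of the 17, 11 were higher under halothane both times and 3 lower both times. The 11 were both Sult1a1 probe sets, rc_AI176456_at, M11794cds#2_f_at, M33648_g_at, Egfr, Fosl2, Rpl11, Dnajb1, Psmb4 and Acadl, and the 3 were Mx1, Mafk and Nptx2. Acadl, the long-chain acyl-CoA dehydrogenase of mitochondrial fatty acid oxidation, had 115.9, 117.5 and 112.7 after 5 halothane exposures and 117.4, 138.3 and 88.1 after 10, against 92.2, 89.4 and 68.9 after 5 isoflurane exposures and 69.5, 97.9 and 72.2 after 10. Only halothane 10 replicate 3 fell within the isoflurane range, and the log2 differences were 0.48 at 5 and 0.51 at 10 exposures.

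The other 3 of the 17 pointed opposite ways. Supt5h, a subunit of the transcription elongation factor DSIF, had 4.6, 3.5 and 12.1 after 5 halothane exposures against 49.7, 63.9 and 73.4 after 5 isoflurane exposures on rc_AA858586_at, a log2 difference of -1.90. After 10 exposures it had 60.6, 82.2 and 13.7 under halothane against 7.8, 18.6 and 6.6 under isoflurane, a difference of 1.34. The change in the difference was 3.24 (limma with Benjamini-Hochberg adjustment, adjusted p = 0.99992), the largest of those named. Without halothane 10 replicate 3 it was 3.94 and passed (adjusted p = 0.000631). Controls of that probe set ran from 0.8 to 78.7, as wide as both agents together. The 2 brighter Supt5h probe sets lay at -0.11 and 0.11 (L41685mRNA_at) and at -0.07 and -0.11 (rc_AA892053_at) after 5 and 10 exposures, so neither moved by more than 0.11 in either course. Vegfa, the vascular endothelial growth factor, lay at -0.94 after 5 exposures and 1.29 after 10 on M32167_at, with 3 other probe sets between -0.27 and 0.32.

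The lowest p-values within 1 exposure number came mostly from signals near the floor. After 5 exposures Ugt2b35, a UDP-glucuronosyltransferase, had 28.7, 74.0 and 30.6 under halothane against 4.8, 4.3 and 6.0 under isoflurane, a difference of 1.28 measured against the floor. After 10 exposures it had 4.7, 10.2 and 3.9 under halothane against 25, 5.7 and 4.6 under isoflurane, so that its high values were not seen in the longer course. Pdgfb, a subunit of platelet-derived growth factor, had 48.6, 44.5 and 57.4 under halothane against 19.7, 33.7 and 17.0 under isoflurane after 5 exposures (1.15), and a difference of -0.01 after 10. Chdh, the mitochondrial choline dehydrogenase, lay at 1.23 after 5 exposures and -0.32 after 10. After 10 exposures Erbb2, the partner receptor of the Egfr family, had 11.2, 12.5 and 16.2 under halothane against 34.3, 33.5 and 33.0 under isoflurane (-1.03, adjusted p = 0.868 by limma with Benjamini-Hochberg adjustment), while after 5 exposures its difference was 0.03. The zinc finger genes Zfp426 and Zfp64 both lay at -1.07 after 10 exposures, and at 0.15 and -0.10 after 5.

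Genes were next counted in 23 lists by function and 9 lists of cell markers, with 1 probe set per gene, the brightest. Over all 4072 genes 1819 (44.7%) had a higher mean under halothane, with a median log2 difference of -0.022, and among the 1018 brightest genes 51.1% did. In every one of the 32 lists 0 members passed the adjusted test. Over all genes 68 had an unadjusted p under 0.05 with a higher and 88 with a lower halothane mean. Of the 32 lists, 17 kept the sign of their median whichever array was left out. Among these, the median then ran from 0.074 to 0.14 for oxidative phosphorylation and from 0.079 to 0.15 for proteasome genes. It ran from 0.056 to 0.12 for heat shock genes and from 0.0016 to 0.11 for ribosomal genes. These medians therefore describe the 12 arrays at hand. Averaging each gene over its probe sets, an alternative chosen after the data were seen, also turned the sign of the median for synaptic vesicle genes (-0.043), potassium channel genes (0.0032) and endothelial markers (-0.065, 7 of 16 higher).

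Oxidative phosphorylation, carried out by the respiratory chain complexes and ATP synthase that make most of the ATP of neurons, was the list with the most members at an unadjusted p under 0.05. Of 46 measured members 38 had a higher mean under halothane (36 after 5 and 38 after 10 exposures), and 31 (67.4%) were higher both times, against 983 of 4072 genes (24.1%). The members are bright on average. Of the 1018 brightest genes 51.1% were higher in the pooled comparison, and their share higher both times was not counted. The median log2 difference of the list was 0.10. Of its members 6 had an unadjusted p under 0.05 with a higher halothane mean and 0 with a lower one. Ndufb9, an accessory subunit of complex I, had 1249.8 to 1842.8 (median 1581.9) under halothane and 1132.5 to 1397.8 (median 1329.2) under isoflurane, a log2 difference of 0.28 ± 0.09 (SE). Ndufb5, another complex I subunit, lay at 0.18 ± 0.07 and Uqcrc2, a core protein of complex III, at 0.23 ± 0.10. Members with lower means included the complex IV subunits Cox5a and Cox8b (both -0.39) and the catalytic ATP synthase subunits Atp5f1a (-0.06) and Atp5f1b (-0.05). The median was 0.11 on the low and 0.13 on the high spike-in arrays, and with each array left out it ran from 0.074 to 0.14 with 34 to 43 members higher. With each gene averaged over its probe sets it was 0.068, with 37 of 46 members higher. The mean of the list on each array lay above all isoflurane arrays on 4 of 6 halothane arrays, and the controls, from -0.18 to 0.12 around the mean of the exposed arrays, spanned both agents.

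**Figure D4:**
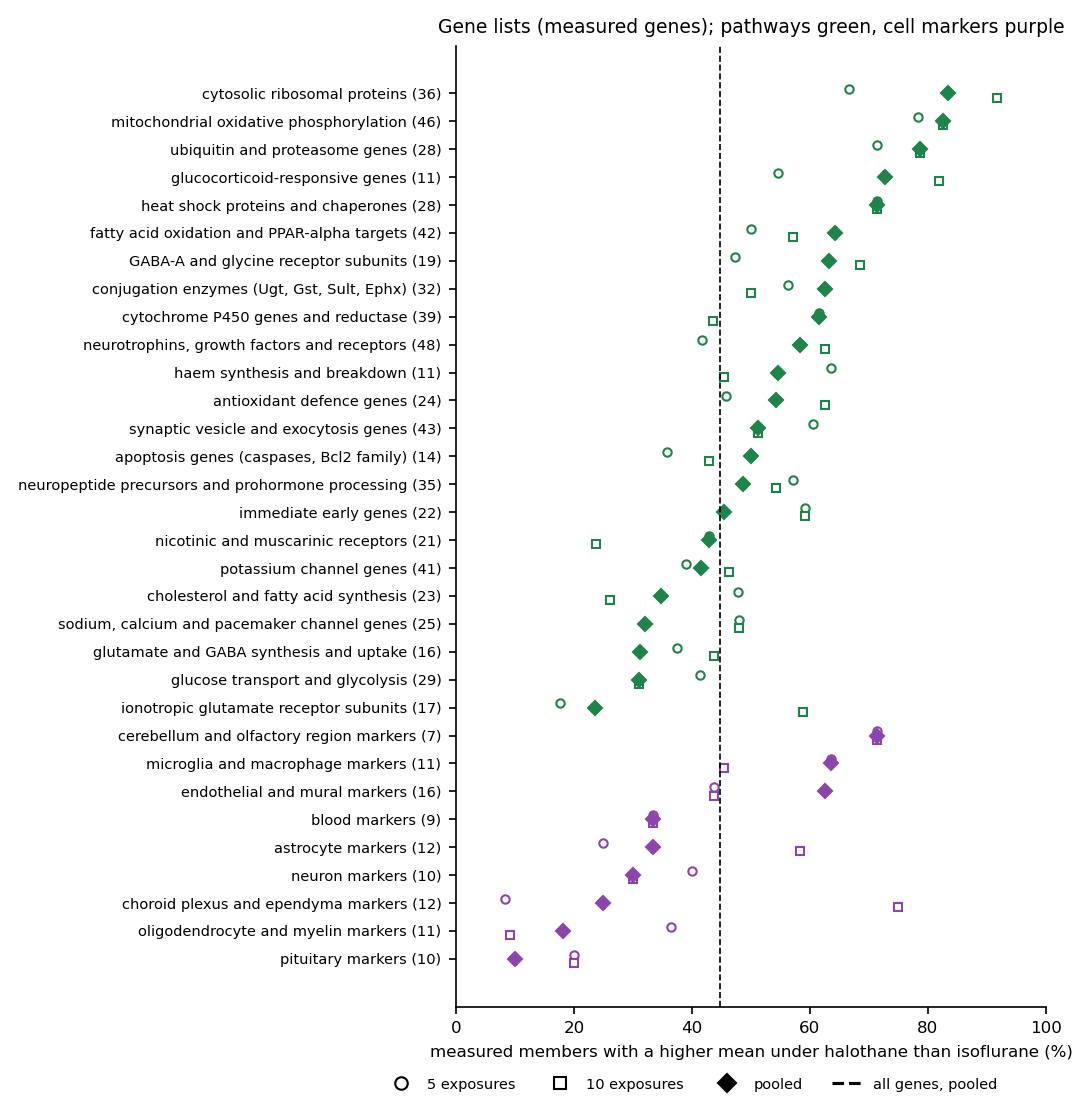
Share of measured list members with a higher mean under halothane than under isoflurane, with the number measured in brackets, for 23 functional lists (green) and 9 marker lists (purple). Circles are 5 exposures, squares 10 exposures and diamonds the pooled comparison, and the dashed line marks 44.7%, the pooled share over all 4072 genes; in the pooled comparison ribosomal, oxidative phosphorylation and proteasome genes lie farthest right and pituitary and myelin markers farthest left, while the order differs at 5 and at 10 exposures.

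Protein synthesis and turnover showed counts of the same kind. Of 36 cytosolic ribosomal protein genes 30 were higher under halothane, with a median of 0.062, among them Rpl27a (0.19), Rpl22 (0.24) and Rpl23 (0.21). This count rested on single arrays: it was 19 of 36 without halothane 10 replicate 3 (median 0.012) and 19 without isoflurane 10 replicate 2 (median 0.0016), while the array means of the list ran from -0.25 to 0.35 under halothane and from -0.25 to 0.22 under isoflurane. Of 28 ubiquitin and proteasome genes 22 were higher, with a median of 0.12. Psma5 and Psma4, alpha-ring subunits of the proteasome, lay at 0.17 and 0.21, and Psmb4 at 0.26 on its brightest probe set. The proteasome median was 0.14 on the low spike-in arrays and 0.010 on the high ones, and 0.079 without isoflurane 10 replicate 2. It was 0.066 (21 of 28) with each gene averaged over its probe sets. Array means overlapped, with 3 of 6 halothane arrays above all isoflurane arrays.

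**Figure D5:**
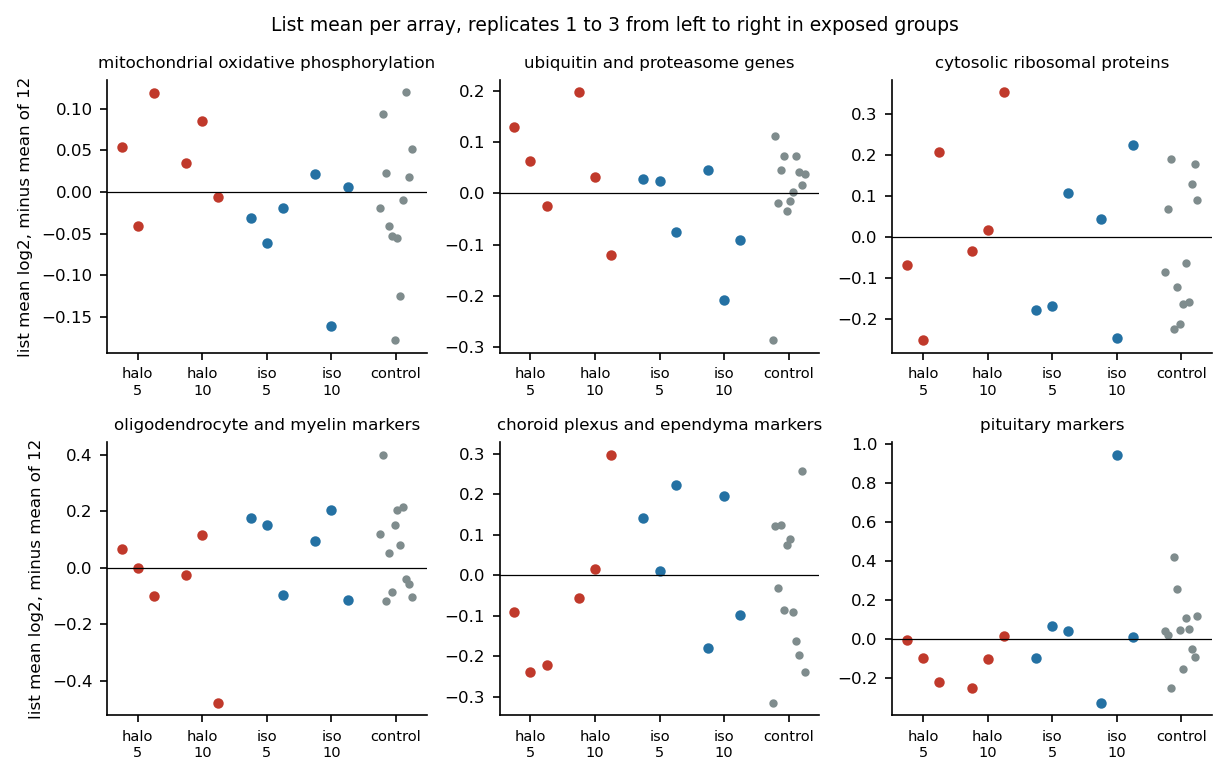
Mean log2 signal of the members of 6 lists on each array, minus the mean of the 12 exposed arrays, for halothane (red), isoflurane (blue) and control (grey). Oxidative phosphorylation has 4 halothane arrays above all isoflurane arrays, the ribosomal list is highest on replicate 3 of 10 halothane exposures, and the pituitary list stands at 0.94 on replicate 2 of 10 isoflurane exposures.

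Of the stress lists, 20 of 28 heat shock and chaperone genes were higher under halothane at each exposure number and pooled, with a median of 0.077, or 0.12 without isoflurane 5 replicate 1. With each gene averaged over its probe sets it was 16 of 28, with a median of 0.033. Besides Dnajb1, Hspb6, a small heat shock protein, lay at 0.32 ± 0.12 (SE), and Pdia3, a disulphide isomerase of the endoplasmic reticulum, at -0.22. Of 11 glucocorticoid-responsive genes 8 were higher (6 after 5 and 9 after 10 exposures), with a median of 0.12. Apart from Sult1a1, its members Klf9 (0.14) and Glul, glutamine synthetase (-0.10), had unadjusted p-values of 0.13 and 0.38, and Sult1a1 was the only member under 0.05. Among 24 antioxidant genes 13 were higher, with Sod2, the mitochondrial superoxide dismutase, at 0.27 and Txnrd1, thioredoxin reductase, at -0.20. Of 14 apoptosis genes 7 were higher, Casp6 lying at -0.52 and Bak1 at -0.33.

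Enzymes that handle foreign compounds, among them those that metabolise volatile anaesthetics in liver, were counted next. Of 39 cytochrome P450 and reductase genes 24 were higher under halothane (24 after 5 exposures and 17 after 10), with a median of 0.025. Cyp7b1, the oxysterol 7-alpha-hydroxylase of brain, had 88.4 to 139.1 under halothane and 61.9 to 94.9 under isoflurane (0.36 ± 0.14, SE), and Cyp4f6, of the fatty acid hydroxylase family, had 29.3 to 129.7 under halothane and 93.3 to 178.0 under isoflurane (-0.94 ± 0.35). Of 32 conjugation enzymes 20 were higher. The highest differences were those of Ugt2b35 (0.54, resting on values near the floor) and Sult1a1 (0.52), with Gsto1 at 0.19 and Gsta3 at -0.53, both glutathione transferases. Of 11 genes of haem synthesis and breakdown 6 were higher. Alas1, the first enzyme of haem synthesis, lay at 0.18 ± 0.14 on one probe set and 0.02 ± 0.18 on the other.

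In fuel metabolism, 27 of 42 genes of fatty acid oxidation and of the PPAR-alpha programme were higher under halothane, with a median of 0.026. With each gene averaged over its probe sets it was 22 of 42, with a median of 0.0037. Acadm, the medium-chain acyl-CoA dehydrogenase, had 58.6 to 110.9 (median 85.2) under halothane and 19.2 to 67.8 (median 46.8) under isoflurane, a log2 difference of 0.93 ± 0.30 (SE), against 8.9 to 70.2 in control. The halothane values 63.2 and 58.6 lay within the isoflurane range. Acadl was at 0.50 ± 0.15 (SE) and Eci1, an enoyl-CoA isomerase of the same pathway, at 0.45 ± 0.20, and no member had an unadjusted p under 0.05 with a lower halothane mean. In glucose transport and glycolysis 9 of 29 members were higher, with a median of -0.048. Pgk1, phosphoglycerate kinase, lay at -0.54 ± 0.23 (SE), with 676.8 to 1865.0 under halothane and 885.1 to 2044.9 under isoflurane, and Hif1a, the hypoxia-inducible regulator of glycolysis, at -0.37 ± 0.16. Of 23 genes of cholesterol and fatty acid synthesis 8 were higher, with a median of -0.094, Acat2 lying at -0.25 and Mvd at -0.24.

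Receptors and channels include the known targets of both agents. Of 19 GABA and glycine receptor genes, a list that also holds the GABA-B subunits, 12 were higher under halothane (9 after 5 exposures and 13 after 10). The median of 0.056 turned to -0.027 with array weights and to -0.014 without isoflurane 10 replicate 2, each with 9 of 19 higher. Gabrb1, a beta subunit of the GABA-A receptor, had the largest difference of the list, 1.01 ± 0.37 (SE). Its signals were 153.2, 124.0 and 145.9 after 5 halothane exposures and 136.7, 159.4 and 53.7 after 10, against 51.8, 41.0 and 98.1 after 5 isoflurane exposures and 148.7, 46.0 and 34.2 after 10. A high isoflurane array and a low halothane array, both after 10 exposures, crossed over, and the controls ran from 28.4 to 158. Of 17 ionotropic glutamate receptor subunits 4 were higher (3 after 5 exposures and 10 after 10), with Grin2a, an NMDA receptor subunit, at -0.46 and Gria1, an AMPA receptor subunit, at 0.23. Of 41 potassium channel genes 17 were higher, with Kcnv1, a modulatory subunit, at 0.39 ± 0.15 (SE). Of 25 sodium, calcium and pacemaker channel genes 8 were higher, with Cacna1d, an L-type calcium channel, at -0.33 ± 0.14 (SE). Of 21 genes of nicotinic and muscarinic transmission 9 were higher, and of 16 genes of glutamate and GABA synthesis and uptake 5 were.

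Of 43 synaptic vesicle genes 22 were higher under halothane, with Cplx1, complexin 1, at 0.27 ± 0.11 (SE) and Sh3gl2, endophilin A1, at 0.43 ± 0.19. Of 35 neuropeptide genes 17 were higher and of 22 immediate early genes 10, with Jun at 0.28 ± 0.11 (SE) and Ptgs2 at -0.52. Of 48 neurotrophin and growth factor genes 28 were higher (20 after 5 exposures and 30 after 10), with Egfr, Erbb2 and Pdgfb as the members with the lowest p. Vgf, a neuropeptide precursor, lay at 0.27 after 5 exposures and -0.26 after 10, and at 0.0056 pooled.

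Markers of neurons (10 measured), astrocytes (12), myelin (11), microglia (11), vessels (16) and blood (9) were all read in the tissue. Their pooled shares with a higher halothane mean were 3 of 10, 4 of 12, 2 of 11, 7 of 11, 10 of 16 and 3 of 9. In the same order, 4, 3, 4, 7, 7 and 3 were higher after 5 exposures and 3, 7, 1, 5, 7 and 3 after 10. Gjb1, the connexin of myelinating glia, had 111.0 to 147.1 (median 123.2) under halothane and 144.8 to 168.0 (median 150.8) under isoflurane, a log2 difference of -0.32 ± 0.10 (SE), with 1 halothane array inside the isoflurane range. The myelin list had a median of -0.13, and its lowest array mean, -0.48, was that of halothane 10 replicate 3, without which the median was -0.084; it was -0.22 without halothane 10 replicate 2 and -0.21 without isoflurane 5 replicate 3. Its summed signal ranged from 9272 to 12884 under halothane and from 11201 to 13912 under isoflurane. Ctss, the lysosomal cathepsin S of microglia, averaged 1045 ± 80.4 under halothane and 871 ± 134 under isoflurane (SD, n = 6 each), a log2 difference of 0.27.

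Markers of choroid plexus and ependyma, of the pituitary and of single brain regions differed between arrays of the same group. Choroid plexus and ependyma markers were higher under halothane in 1 of 12 after 5 exposures and in 9 of 12 after 10, and their summed signal ran from 2966 to 8070 under halothane and from 5518 to 7605 under isoflurane. Ttr, transthyretin, which dominates that sum, had 3380.5, 2203.8 and 1349.6 after 5 halothane exposures and 3461.1, 4093.0 and 5615.8 after 10, against 3455.8 to 5371.6 over the isoflurane arrays. Of 10 pituitary markers 1 was higher, with a median of -0.17, and the summed signal was 1020 on isoflurane 10 replicate 2 against 497 to 587 on all halothane arrays; without that isoflurane array the median was -0.080, and without isoflurane 10 replicate 1 it was -0.28. Pomc, the precursor of corticotropin, had 194.5 on that array and 13.2 to 58.2 under halothane. Of 7 cerebellar and olfactory markers 5 were higher. The part of these markers in the differences of other genes was not tested.

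Finally, further genes named in earlier results of these data were set between the agents. Among them, Phaf1 had been called against control there, whereas Plin2 and Gal had only been named. Phaf1 had 14.4 to 38.6 under halothane and 16.6 to 21.2 under isoflurane, a log2 difference of -0.10 after 5 exposures and 0.62 after 10; pooled it was 0.26, and 0.13 without halothane 10 replicate 2. Plin2, which coats lipid droplets, lay at -0.38 ± 0.18 (SE) on rc_AA893280_at, with 20.0 to 31.3 under halothane and 24.5 to 52.3 under isoflurane, and at 0.10 on a probe set near the floor. The probe set rc_AA893280_at was at -0.50 on the low and -0.13 on the high spike-in arrays. Gal, the galanin precursor, was above the floor on 1 of 6 halothane arrays (20.0) and on 2 of 6 isoflurane arrays (39.5 and 47.0, both after 10 exposures), with a log2 difference of -0.42, which was -0.022 with the floor at the 10th percentile, -0.25 on the low and -0.76 on the high spike-in arrays.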

How the data were processed

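Whole rat brain RNA of 24 samples was read on 1 array each; 12 arrays entered the comparison. The deposited table holds linear intensity values, whose trimmed means are nearly equal as deposited; no source used here names the software or a scaling, and the values were not rescaled. Groups came from the labels. Of 8799 probe sets, 59 control probe sets were left out. Values under 16.5 were set to it, log2 was taken, and limma 3.58.1 in R 4.3.3 (lmFit and eBayes with an intensity trend, two-sided) was fitted with agent and exposure number; 4 group means gave the differences at 5 and 10 exposures and their interaction. The p-values of limma were adjusted by Benjamini-Hochberg across 7089 probe sets, with a threshold of 0.05. The number of arrays limits the precision.

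Of the tested probe sets, 5796 have 1 symbol in the platform annotation (4072 genes), 256 several and 1037 none; 5777 were found in a current rat gene table and 0 symbols changed. Named are the 10 genes with the lowest p in each direction, the 3 lowest in each direction within an exposure number and for the interaction, up to 3 members per list, and genes of earlier results; other names were chosen after seeing values. Comparison, lists and names were chosen with earlier results of these data known. The fit was tested on simulated data. Alternatives covered scaling, floor, filter, trend, array weights, blocks, spike-in level, all 24 arrays, and each array left out.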

Additional observations from a re-analysis of the deposited data

Results flagged for a closer look

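For 43 described probe sets the 6 arrays of each agent were checked for a single array far from the others, 86 groups in all. Chance gives about 1 in 20 groups only without values tied at the floor, so the 10 found cannot be read against that share. In 5 of the 10 groups the other 5 arrays of the agent, or 4 of the 5 for Egfr, lay at or below the floor. Egfr M37394_at stood at 18.4 on isoflurane 5 replicate 1, Ugt2b35 U06274_s_at at 25 on isoflurane 10 replicate 1, Plin2 rc_AA874941_at at 17.7 on isoflurane 10 replicate 2, Gal J03624_at at 20.0 on halothane 5 replicate 1 and M33648_at at 45.1 on isoflurane 10 replicate 3. On that same array M33648_g_at stood at 182.7, where the next isoflurane array had 120.2. Fosl2 U18982_s_at stood at 27.0 on isoflurane 10 replicate 1, against 17.3 for the next. The 3 low ones were Il12b S82489_s_at at 25.6 and Rpl13a rc_AA891713_at at 231.1, both on isoflurane 10 replicate 1, and M11794cds#2_f_at at 296.0 on isoflurane 5 replicate 2.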

How the results depend on the processing

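The pooled comparison called 0 probe sets in the fits with another scaling, floor, filter, trend, array weights, block, spike-in level or set of arrays, and 0 to 1 with each array left out: 1 without halothane 5 replicate 3 (Egfr) and 1 without isoflurane 5 replicate 2 (rc_AI176456_at). The differences at 5 exposures called 1 with no filter (Mcpt3, 0.39, adjusted p = 0.00319 by limma) and 1 with all 24 arrays (Ugt2b35, 1.28, adjusted p = 0.0401), and 0 to 1 with each array left out; those at 10 exposures and the interaction also called 0 to 1. In these 3 results the 1 was Supt5h without halothane 10 replicate 3. The cause was not tested. Unadjusted p under 0.05 counted 174 (strict filter, 4398 probe sets tested) to 503 probe sets in the pooled comparison, against 284 in the reported fit, 450 on low spike-in arrays, 482 when blocked on spike-in level and 465 without halothane 10 replicate 3. Replicate numbers were shared between groups, but the labels do not say that they pair samples: same-numbered deviations correlated at 0.088 to 0.47, with 11 of 12 arrays correlating best with their own number. With the replicate block 0 were called (lowest adjusted p 0.115 by limma) and 503 lay under 0.05 unadjusted. Without overlap between agents were 17 probe sets, and 11 after median centring. Most of the 43 described probe sets were chosen from these same arrays by low p or lack of overlap, which favours a kept sign. Of the 43, 41 kept their sign throughout. The exceptions were near 0: Vgf M74223_at (0.0056) was at -0.086 on low spike-in arrays and at -0.12 to 0.055 with an array left out, and Alas1 J03190_g_at (0.025) was at -0.20 on high spike-in arrays and at -0.055 to 0.12 with an array left out. Of 32 lists 15 kept the sign of their median throughout.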
